A study of Mus musculus with 8 samples.

Results

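The wild-type baseline described here is the transcriptome of LY6D-negative common lymphoid progenitors from mice with no targeted allele, and it rests on 2 of the 8 arrays of the series. Common lymphoid progenitors are bone marrow cells that can still give rise to B, T, natural killer and some dendritic cells. The cells came from the marrow of C57bl/6 mice of 10 to 13 weeks. The sort kept cells that carried FLT3 and CD127, the protein of Il7r, and removed cells with LY6D or with antigens of mature lineages. Cells of several marrows were pooled in each sort, so that the spread between WT 1 and WT 2 is a spread between pools and not between mice. At least 2 sorts were made for each genotype. The other 6 arrays, 2 from mice without HEB and 4 from mice without E2A, enter no comparison. They were used once, in an alternative choice of probe sets. RNA went through a small-sample protocol with repeated amplification before it was labelled.

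Lymphoid progenitors are known for expressing genes of several lineages at low levels before they settle on one, a state called lineage priming. FLT3 ligand and interleukin 7, which act through Flt3 and Il7r, sustain these cells in the marrow. The basic helix-loop-helix E proteins, with Ikaros, PU.1 and other factors, prepare lymphoid genes for use, and the appearance of LY6D on the surface marks cells moving towards the B lineage.

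Each gene was represented by its brightest probe set, a group of short probes on the array that report on one transcript. The 18193 genes were sorted into coarse classes on a log2 intensity scale. A gene was placed at background if it lay, on both arrays, at or under the 95th percentile of 147 genes of smell, taste, hair, lens and epithelial defence, which were taken as a reference for tissue-restricted genes (a log2 intensity of 4.37 on each array). It was called high if it lay at or above the 90th percentile of all genes on both arrays (8.59 and 8.75). Genes between these limits on both arrays were intermediate, and genes placed differently by the arrays were split. The limits are a convention: 2649 genes lay within 0.25 of one of them. In all, 1614 genes (8.87%) were high, 7389 (40.6%) intermediate, 8042 (44.2%) at background and 1148 (6.31%) split. The brightness of a probe set also depends on its own sequence, so an intensity is no transcript number, small differences in rank between genes carry no meaning, and a gene at background may still be transcribed.

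**Figure D1:**
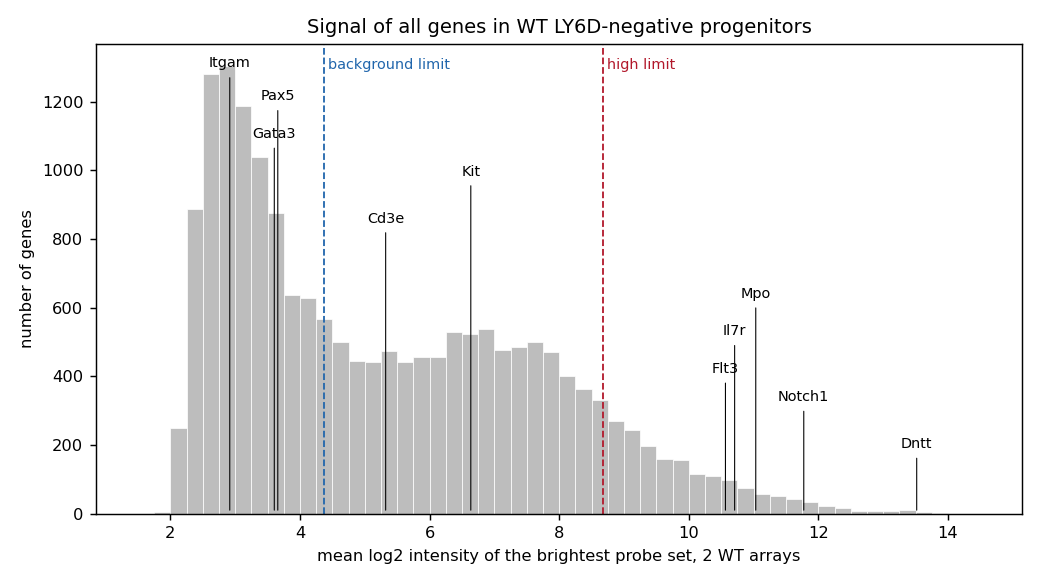
Histogram of the mean log2 intensity of 18193 genes over the 2 WT arrays, with dashed lines at the background and high limits (mean of the 2 arrays) and labelled lines at single genes. Flt3, Il7r, Mpo, Notch1 and Dntt sit right of the high limit, Kit and Cd3e lie between the limits, and Itgam, Gata3 and Pax5 are left of the background limit.

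The pools resembled each other in most genes and differed in a few. The median absolute difference between the arrays was 0.198 on the log2 scale for high genes, 0.314 for intermediate genes and 0.142 for genes at background. Over all genes 2.71% were at least 2-fold brighter on WT 2 and 1.13% at least 2-fold brighter on WT 1. A higher value on WT 2, of any size, was read for 56.6% of all genes. With 1 array on each side there is no test of such a difference. Where 1 array is at background, the fold is given as a lower bound, the brighter array against the background limit of the other. Ly6d itself, a transcript whose protein was used to exclude cells, read 3.53 on WT 1 and 7.83 on WT 2, so that it was at background on the first array and intermediate on the second. The spiked control transcripts that are added before amplification read 9.04 on WT 1 and 6.60 on WT 2 (mean log2 intensity of 24 probe sets), and the hybridization controls 11.4 and 10.29 (18 probe sets). The 3' signal of beta-actin exceeded its 5' signal by 4.45 on WT 1 and 3.84 on WT 2, and that of Gapdh by 6.03 and 5.0. The part of these technical differences in any gene's difference was not tested, and values are given below for each array.

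All 4 genes that mark the progenitor were high on both arrays. Dntt, the terminal transferase that adds bases at the joints of antigen receptor genes, read 13.51 and 13.52 on WT 1 and WT 2 and ranked 5 among all genes, among genes for ribosomal proteins. Notch1, the receptor whose signal directs progenitors to the T lineage, read 11.63 and 11.92. Il7r read 10.51 and 10.91, and Flt3 read 10.47 and 10.66. The 4 genes thus lay on the same side of the limit in both pools, and they did so under each of the 10 alternative settings that classify genes. Several of these settings could not have changed this, namely other background limits, a lower high limit and centring of the arrays. Leaving out either array, or quantile normalization, which keeps the order of values within an array, could hardly have changed it. The reason is that the high limit is a percentile within each array. The mean ± SD was 13.52 ± 0.005 for Dntt, 11.77 ± 0.20 for Notch1, 10.71 ± 0.28 for Il7r and 10.57 ± 0.14 for Flt3 (log2 intensity, n = 2). Flt3 has 1 probe set. The weaker probe set of Il7r read 8.04 and 7.92, and that of Notch1 6.88 and 7.52, which places both as intermediate. Dntt has 3, of which 1 read 12.08 and 12.32 and another 9.80 and 7.77, so that only the last differed between the pools by over 2-fold.

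The promoters of the 4 markers differed in sequence. They are printed because promoter sequence differed in part between the signal classes over all genes, mainly between genes at background and the others. A CpG is a C followed by a G, which reads the same on the opposite strand. The CpG ratio sets the number of CpG against that expected from the C and G content. It was computed on 300 bases, from 250 before to 50 after the start of each gene, in RefSeq promoters of build GRCm38.p6. Below are the 250 bases before the start, 5′ to 3′ on the gene's strand, with each CpG in capitals. Rag1 and Vpreb1, genes of antigen receptor assembly that differed between the pools, stand beside the markers.
Flt3, chr5:147400490-147400739, minus strand: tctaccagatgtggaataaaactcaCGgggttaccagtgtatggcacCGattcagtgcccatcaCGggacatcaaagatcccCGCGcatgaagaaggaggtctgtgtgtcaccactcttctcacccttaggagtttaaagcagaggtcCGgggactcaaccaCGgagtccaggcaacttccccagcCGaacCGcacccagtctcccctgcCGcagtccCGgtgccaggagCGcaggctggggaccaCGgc
Notch1, chr2:26503823-26504072, minus strand: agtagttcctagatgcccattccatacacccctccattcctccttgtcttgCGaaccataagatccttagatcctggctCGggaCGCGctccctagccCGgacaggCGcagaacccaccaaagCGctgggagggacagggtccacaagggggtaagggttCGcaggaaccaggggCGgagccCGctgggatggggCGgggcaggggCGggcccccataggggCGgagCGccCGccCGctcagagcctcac
Il7r, chr15:9529877-9530126, minus strand: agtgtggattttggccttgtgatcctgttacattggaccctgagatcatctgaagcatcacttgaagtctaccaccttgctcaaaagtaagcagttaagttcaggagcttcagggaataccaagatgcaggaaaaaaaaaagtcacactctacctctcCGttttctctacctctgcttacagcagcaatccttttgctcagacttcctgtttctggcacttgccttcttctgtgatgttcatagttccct
Dntt, chr19:41029025-41029274, plus strand: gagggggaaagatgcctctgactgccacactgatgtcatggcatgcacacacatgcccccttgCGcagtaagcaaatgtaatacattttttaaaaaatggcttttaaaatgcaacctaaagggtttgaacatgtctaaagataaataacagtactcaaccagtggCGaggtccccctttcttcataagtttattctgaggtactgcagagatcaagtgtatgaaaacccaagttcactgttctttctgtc
Rag1, chr2:101649533-101649782, minus strand: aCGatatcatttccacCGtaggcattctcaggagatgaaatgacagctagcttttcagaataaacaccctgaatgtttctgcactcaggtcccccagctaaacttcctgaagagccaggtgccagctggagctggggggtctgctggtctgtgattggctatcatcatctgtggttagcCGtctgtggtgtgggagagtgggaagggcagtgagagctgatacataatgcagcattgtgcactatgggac
Vpreb1, chr16:16869256-16869505, minus strand: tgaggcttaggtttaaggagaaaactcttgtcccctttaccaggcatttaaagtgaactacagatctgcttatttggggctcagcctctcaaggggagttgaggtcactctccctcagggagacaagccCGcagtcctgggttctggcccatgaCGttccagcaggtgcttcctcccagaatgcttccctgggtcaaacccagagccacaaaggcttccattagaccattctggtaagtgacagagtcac

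The window of Flt3 held 18 CpG (ratio 0.65) and that of Notch1 23 (ratio 0.66). Both ratios lay under the lower quartile of high genes, 0.696. Il7r had 1 (ratio 0.06) and Dntt 2 (ratio 0.15), although both genes were high. Rag1 had 3 and Vpreb1 2 (ratios 0.16 and 0.09). Over the 11791 genes with a single promoter in the table (64.8% of all genes), 57.4% had a ratio of 0.6 or more. The share was 85.2% of 1055 high genes, 77.3% of 4837 intermediate, 65.8% of 720 split and 32.0% of 5179 genes at background. In 10 equal bins of genes by signal it went from 24.6% in the lowest to 85.0% in the highest, and it passed from 52.0% in bin 5 to 70.0% in bin 6. These shares are descriptions without a test, and over the 22862 single promoters of the whole table the share was 35.7%. The lists differed in the number of CpG-rich promoters. They were 1 of 16 in the B-lineage list, 2 of 14 in the T-lineage list, 6 of 15 in the natural killer and innate list and 2 of 24 among chemokine and homing receptors. They were 7 of 17 in the antigen receptor signalling list, 18 of 18 in the MAP kinase and RAS list and 22 of 26 in the cell cycle list.

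**Figure D2:**
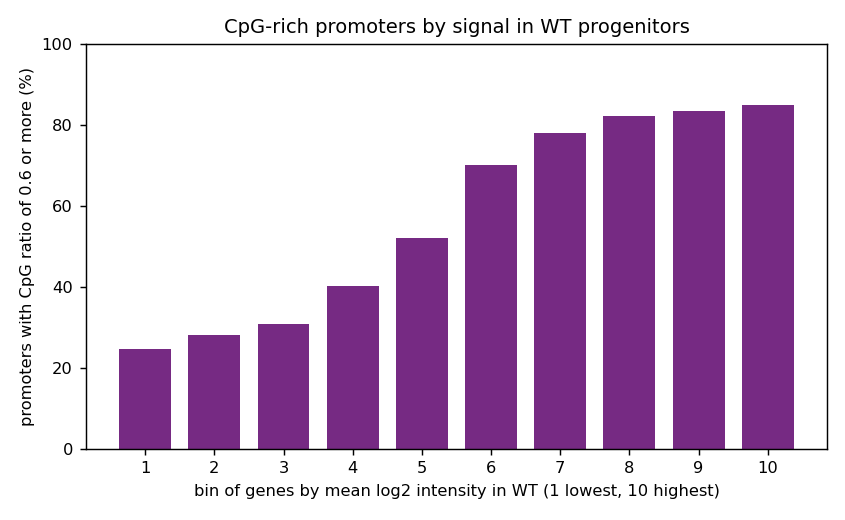
Percentage of promoters with a CpG ratio of 0.6 or more (vertical axis) in 10 equal bins of 11791 genes ordered by mean log2 intensity over the 2 WT arrays, each bar holding 1179 or 1180 genes. The bars go from 24.6% in the lowest bin to 85.0% in the highest, with the steepest step between bins 5 and 6.

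The other genes of the gate and of mature lineages lay in every class. Cd93, a surface protein of early progenitors and immature B cells, was high (11.49 and 11.64). Kit, the stem cell factor receptor, which these progenitors carry at a low surface level, was intermediate (6.61 and 6.66). Of the 10 antigens of mature lineages measured, 5, a share close to the 44.2% of all genes, were at background on both arrays. They were the myeloid integrin Itgam (3.25 and 2.58), the B-cell antigen Ms4a1 (2.91 and 2.92), the T-cell coreceptor chains Cd8a (4.30 and 4.31) and Cd8b1 (2.68 and 2.83), and the natural killer receptor Ncr1 (3.03 and 3.28). The pan-leukocyte gene Ptprc was the member at high (10.98 and 10.53). The 4 others were intermediate, and they were Cd79b, a chain of the B-cell receptor (6.77 and 7.73), Itgax (5.78 and 5.90), Cd3e (5.16 and 5.48) and Cd4 (4.57 and 4.84). When the mean of its probe sets is used, with limits set anew on such means, Cd4 is at background. Cd79b has no other probe set, and it becomes split because the high limit then falls under its WT 2 value.

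**Figure D3:**
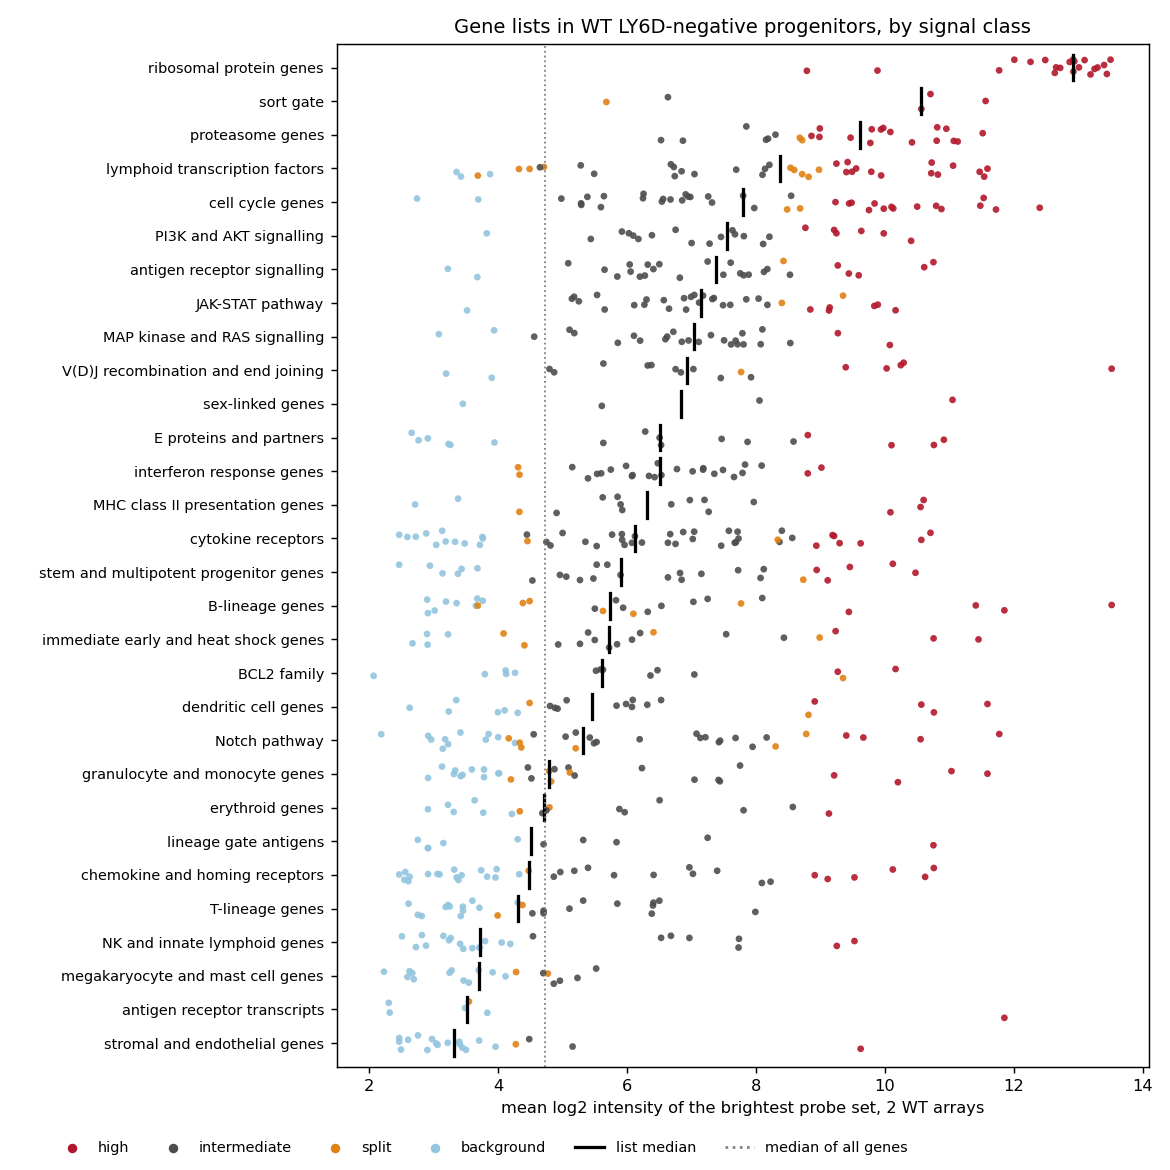
Mean log2 intensity over the 2 WT arrays of each measured member of 30 gene lists, ordered by list median (black bar), with points coloured by signal class and a dotted line at the median of all genes. Ribosomal protein, proteasome and lymphoid transcription factor lists lie far right, and megakaryocyte and mast cell, antigen receptor transcript and stromal lists lie left of the dotted line.

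Cytokine receptors showed a mixture of lymphoid and myeloid members. Of 49 measured, 7 were high (14.3%, against 8.87% of all genes), 28 intermediate (57.1% against 40.6%), 2 split and 12 at background (24.5% against 44.2%). Besides Il7r and Flt3, the high receptors included Crlf2, which pairs with the IL-7 receptor chain to bind thymic stromal lymphopoietin (9.19 and 9.41), and Csf1r, the receptor for macrophage colony-stimulating factor (9.58 and 8.84). Il6st, the shared signal chain of the IL-6 family, read 9.27 and 9.10, and Il17ra 8.78 and 9.10. Pdgfrb, usually a receptor of mesenchymal cells, was also high at its brightest probe set (9.77 and 9.48), but its other probe set read 4.83 and 5.27. Csf1r is split, and Il6st, Il17ra and Pdgfrb are intermediate, with the mean of their probe sets. Intermediate receptors included Il18r1 (7.24 and 8.22), the shared beta chain Csf2rb (7.42 and 7.93), the granulocyte receptor Csf3r (6.18 and 6.29) and the erythropoietin receptor Epor (4.71 and 4.79). The IL-2 receptor chains Il2ra (3.09 and 3.29) and Il2rb (3.85 and 3.58) were at background, as were Il9r, Il5ra, Il13ra1 and Tek.

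Of 35 receptors of adhesion and homing measured, 6 were high (17.1%), 11 intermediate, 1 split and 17 at background (48.6%, close to the 44.2% of all genes). High members were the hyaluronan receptor Cd44 (10.71 and 10.81), the selectin ligand Selplg (10.45 and 10.80), Cd34 (10.29 and 9.96), the integrin chain Itga4 (9.44 and 9.62), Cd48 (8.94 and 9.29) and Ccr9 (8.63 and 9.19). Ccr9 binds the thymic chemokine CCL25 and lay just above the limit on WT 1. Its class rests on the choice of probe set, since its 4 others read from 2.71 to 6.39 and the mean of all 5 puts it at intermediate, as it does Cd44 and Itga4. Cxcr4, which holds progenitors in the marrow, was intermediate (8.11 and 8.08), and Ccr7, another receptor of thymus entry, read 6.22 and 6.61. Among receptors for inflammatory chemokines, Ccr1, Ccr3, Ccr4, Ccr8, Cxcr2 and Cxcr3 were at background, and Ccr2 (5.05 and 4.88) and Cx3cr1 (5.23 and 5.14) were intermediate, though at background with the mean of their probe sets. The egress receptor S1pr1 (4.11 and 3.85) was at background.

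**Figure D4:**
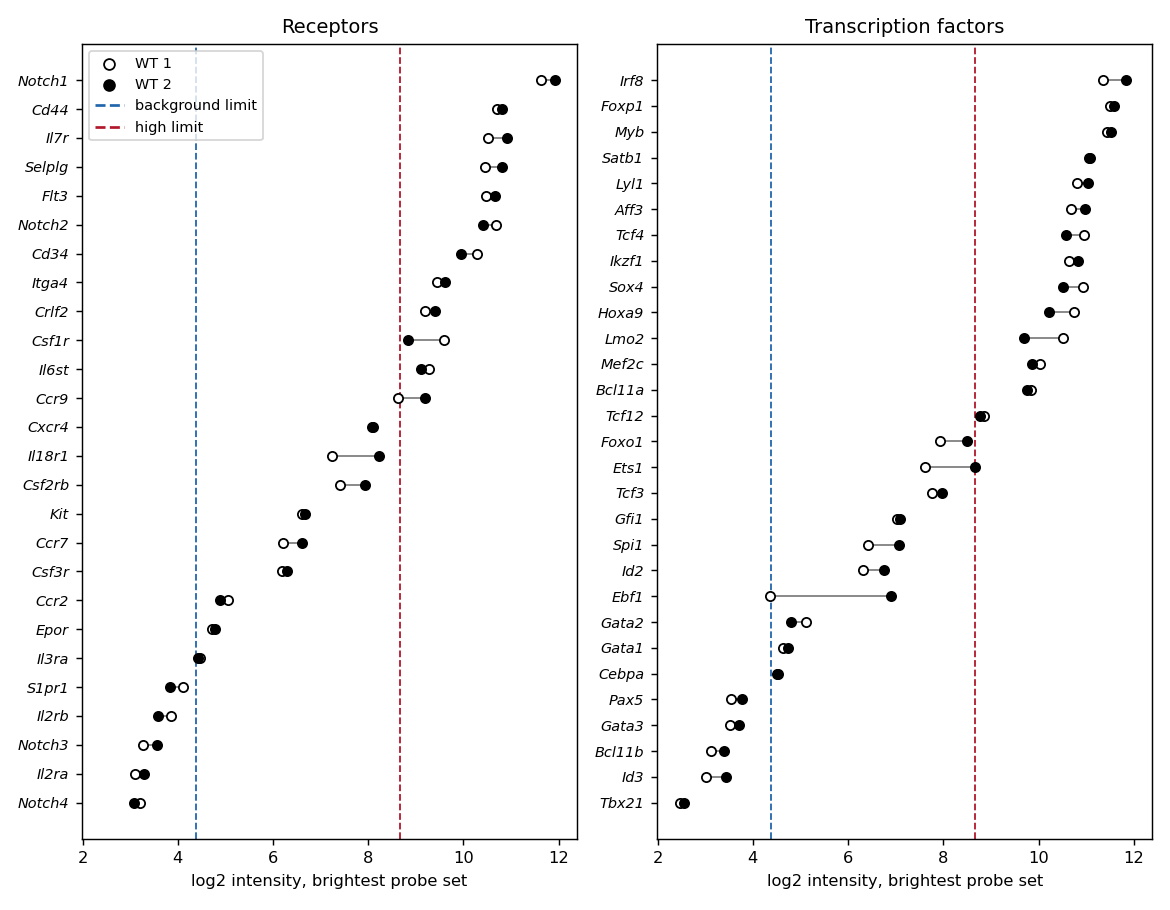
Log2 intensity of the brightest probe set on WT 1 (open circles) and WT 2 (filled circles) for selected receptors and transcription factors, with dashed lines at the limits (mean of the 2 arrays). Most pairs of circles lie close together, whereas Ebf1 is at 4.36 on WT 1 and 6.90 on WT 2.

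Of the Notch receptors only 2 were above background among the 4 measured. Notch1 and Notch2 (10.69 and 10.42) were high, and Notch3 (3.28 and 3.56) and Notch4 (3.20 and 3.09) were at background. Notch2 is intermediate with the mean of its probe sets. Of the genes that process the receptor, the gamma-secretase subunit Psenen (9.48 and 9.85) and the sheddase Adam10 (9.40 and 9.41) were high and Aph1a, Ncstn, Psen2 and Adam17 intermediate. Aph1b, another subunit, was split and at background on WT 2 (4.39 and 3.94). Rbpj, the DNA-binding partner of cleaved Notch, lay at the high limit and was split (8.83 and 8.73). The target genes in the list ranged widely: Dtx2 was split at the high limit (7.79 and 8.82), Hes1 read 3.87 and 4.81, Nrarp 5.04 and 6.02, Hes5 4.52 and 5.58, Dtx1 5.02 and 5.39, and Ptcra, the pre-T-cell receptor chain, was at background (3.23 and 3.23). Myc, a target shared with other pathways and a member of the cell cycle list, was high (9.63 and 9.34). The ligands Dll1, Dll3, Dll4 and Jag1 were at background and Jag2 was intermediate. The pathway list as a whole had 4 high (11.1%), 15 intermediate (41.7%), 6 split and 11 at background (30.6%) of 36, with the high and intermediate shares near those of all genes.

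Signalling genes below the receptors were mostly intermediate. The JAK-STAT list had 6 high, 23 intermediate (71.9%, against 40.6% of all genes), 2 split and 1 at background of 32. Jak1, which binds the IL-7 receptor chain, read 6.84 and 7.15, and Jak3, which binds the common gamma chain, 5.48 and 6.75. Stat5a read 6.80 and 6.51, and Stat5b 6.76 and 7.07. The feedback inhibitors differed in class, as Cish was intermediate (7.52 and 7.69) and Socs1 at background (3.37 and 3.67). The phosphatases Ptpn1, Ptpn2, Ptpn6 and Ptpn11 were all high at their brightest probe sets. The PI3K and AKT list had 6 high, 15 intermediate (68.2%) and 1 at background of 22, with Foxo3 (9.34 and 9.15) and the lipid phosphatase Inpp5d, which was brighter on WT 2, among the high and the catalytic subunit Pik3cb (3.77 and 3.88) at background. In the MAP kinase and RAS list 2 of 26 were high, Mapk14 (9.94 and 10.22) and Map2k2 (9.11 and 9.43), 22 were intermediate (84.6%) and 2 at background, Nf1 and Rasgrp1.

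Parts of the antigen receptor signalling cascade were read above background. Of 28 genes measured, 5 were high, 20 intermediate (71.4%, against 40.6% of all genes), 1 split and 2 at background. Plcg2, the phospholipase of B-cell receptor signalling (10.50 and 10.72), Syk (9.21 and 9.98) and its adaptor Blnk (9.36 and 9.52) were high. Btk was intermediate (7.51 and 8.11), and so was Zap70, the T-cell relative of Syk (6.37 and 6.46). Cd79a, the other chain that couples the B-cell receptor to these kinases, was at background (3.48 and 3.88).

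Transcription factors of lymphoid progenitors were often high, in a list that, like the others, was chosen with earlier results of these data known. Of 38 measured, 14 were high (36.8% against 8.87% of all genes), 12 intermediate, 9 split and 3 at background, with a median of 8.37. Irf8, a factor shared by B and myeloid cells, read 11.34 and 11.84. Foxp1 read 11.50 and 11.58, Myb 11.43 and 11.51, the chromatin organiser Satb1 11.05 and 11.07, and Aff3 10.68 and 10.97. Ikzf1, which encodes Ikaros, read 10.63 and 10.82. Sox4, Mef2c, Bcl11a, Cbfb, Klf3, Klf13, Hhex and Foxo3 were also high. Of these 14, Foxp1 is split and Sox4, Bcl11a, Klf3, Klf13 and Foxo3 are intermediate when the mean of probe sets is used. Spi1, which encodes PU.1, was intermediate (6.41 and 7.08), as were Foxo1 (7.93 and 8.49), Ets1 (7.62 and 8.66) and Gfi1 (7.01 and 7.08). Lef1, Ikzf4 and Dach1 were at background. Between the pools, Ets1, Ets2, Irf4 (3.77 and 5.65) and Pou2af1 were at least 2-fold higher on WT 2 as measured, against 2.71% of all genes. Irf4 and Pou2af1 were at background on WT 1, which bounds their folds at 2.43 and 1.28 or more. Elf1 was higher on WT 1 at its brightest probe set (9.36 and 8.28), but its other, almost as bright, went the other way (8.64 and 8.90).

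The E proteins and their partners covered the whole range. Lyl1 (10.80 and 11.03), Lmo2 (10.51 and 9.69), Tcf4 (10.95 and 10.57) and Tcf12, which encodes HEB (8.85 and 8.76), were high. Tcf3, which encodes E2A, was intermediate (7.76 and 7.98). Among their inhibitors, Id2 was intermediate at its brightest probe set (6.31 and 6.75) and at background by the mean of its 3, and Id1 (3.25 and 3.27), Id3 (3.02 and 3.44) and Id4 were at background. Tal1, a relative of Lyl1, read 5.98 and 7.03. The list had 4 high (23.5%), 7 intermediate (41.2%) and 6 at background (35.3%) of 17, against 8.87%, 40.6% and 44.2% of all genes.

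Recombination genes were read from 18 members, with 5 high (27.8%), 10 intermediate, 1 split and 2 at background (11.1%). Rag2 was intermediate on both arrays (6.65 and 7.41), whereas Rag1, its partner in the recombinase, read 5.97 on WT 1 and 9.57 on WT 2. Among end-joining genes, Xrcc6, which encodes Ku70 (10.02 and 10.56), and Trp53bp1 (10.29 and 10.21) were high at their brightest probe sets, and Lig4 (4.20 and 3.61) and Polm (3.23 and 3.16) were at background. Ighm, the mu heavy chain locus, was high (12.08 and 11.63) at the brightest of 11 probe sets, of which another read 11.00 and 11.39 and 8 were at background on both arrays. In a list of 6 measured antigen receptor transcripts Ighm was the single high member, the joining chain Jchain was split (2.71 and 4.39) and the 4 others, Igk among them (3.87 and 3.80), were at background.

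B-lineage genes ranged from the top of the scale to background. Of 26 measured, 4 were high (15.4%, against 8.87% of all genes), 8 intermediate, 6 split (23.1% against 6.31%) and 8 at background (30.8% against 44.2%). Besides Dntt, Ighm and Blnk, the high member was Cd24a (11.35 and 11.47). Intermediate genes were Cd72, Cd79b, Rag2, Ralgps2, Blk, Cd180, Bank1 and the surrogate light chain Igll1 (5.13 and 5.88). The other probe set of Igll1 was at background on both arrays (3.23 and 3.07). Pax5, which fixes B-cell identity, was at background (3.54 and 3.77), with Cd22, Cd79a, Lef1, Fcrla, Cr2, Ms4a1 and Bst1. The 6 split genes all read higher on WT 2: Vpreb1 read 3.78 and 8.42, Rag1 5.97 and 9.57, Ebf1 4.36 and 6.90, Pou2af1 2.64 and 4.73, and Vpreb3 4.18 and 4.59. Spib, the last of them, differed by 0.99. Vpreb1 encodes a surrogate light chain and Ebf1 the factor that specifies the B lineage, and both were at background on WT 1.

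The B-lineage list held Vpreb1, Rag1 and Ebf1, which are among the 10 genes that differed most towards WT 2. Of its 26 members, 20 read higher on WT 2, against 56.6% of all genes, and 5 were at least 2-fold higher there, against 2.71% of all genes, and none was at least 2-fold higher on WT 1. The median difference of WT 2 minus WT 1 was 0.38 on the log2 scale, against 0.051 over all genes. The mean of the list was 5.67 on WT 1 and 6.43 on WT 2. Rag1, above background on both arrays, was 12.0-fold higher on WT 2. Vpreb1 was at least 16.5-fold higher, Ebf1 at least 5.77-fold and Ly6d, which is not in the list, at least 11.0-fold, since these were at background on WT 1. For Pou2af1, also at background there, the bound is 1.28-fold. Of the 4 other probe sets of Ebf1, 1 differed in the same way (2.98 and 5.64), another read 2.27 and 3.47, another 3.25 and 3.99, and the last 2.86 and 2.82. Dntt, Cd24a and Blnk, already high on WT 1, differed by 0.007, 0.13 and 0.16. On bulk arrays, more cells of a type and more transcript per cell cannot be told apart, and the part of cells beyond the LY6D gate in these values was not tested.

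**Figure D5:**
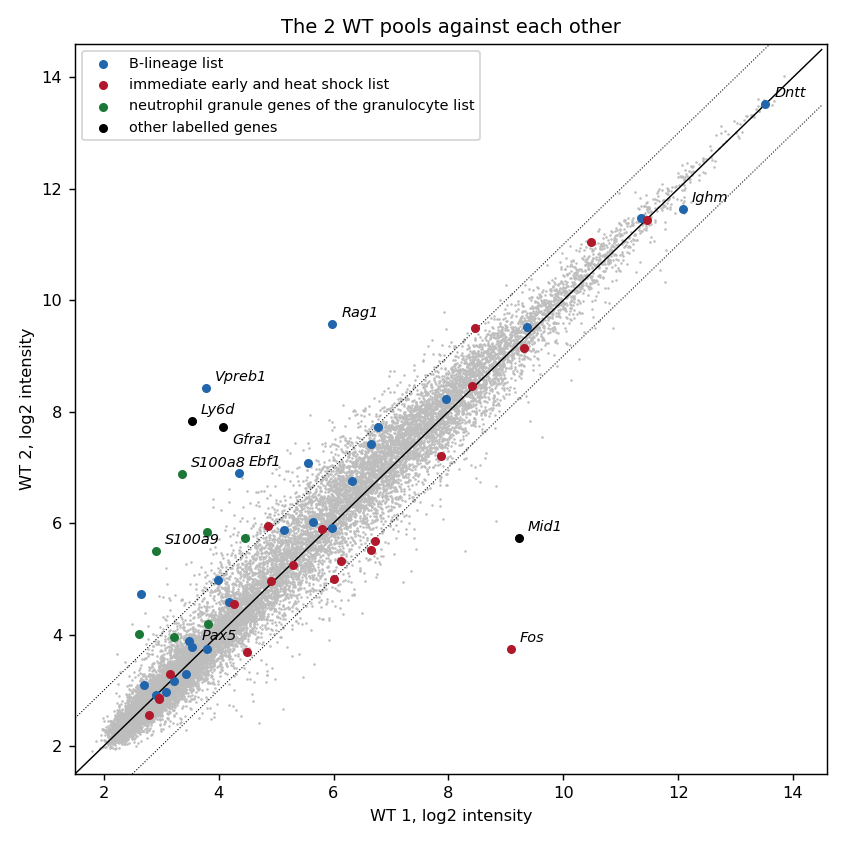
Log2 intensity of 18193 genes on WT 1 (horizontal axis) and WT 2 (vertical axis). The solid line marks equality and dotted lines a 2-fold difference. Coloured points are the B-lineage list, the immediate early and heat shock list, and neutrophil genes selected from the granulocyte and monocyte list. Prtn3 and Ctsg of that list, higher on WT 1, and Elane, Mmp8 and Mmp9, alike on both, are not coloured. Vpreb1, Rag1, Ly6d, Ebf1, S100a8 and S100a9 lie above the upper dotted line, Fos and Mid1 lie under the lower one, and Dntt, Pax5 and Ighm lie between them.

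Some genes of neutrophil granules and cytosol also read higher on WT 2, and others did not. S100a8 read 3.35 and 6.87, S100a9 2.91 and 5.49, Ngp 3.80 and 5.84, and Camp 4.46 and 5.73. They belong to a granulocyte and monocyte list of 29 measured genes, of which 5 were at least 2-fold higher on WT 2 and 3 on WT 1, against 2.71% and 1.13% of all genes. S100a8, S100a9 and Ngp were at background on WT 1, which bounds their folds at 5.67, 2.18 and 2.78 or more, and the fifth, Chil3, was at background on both arrays. The 3 higher on WT 1 were the granule proteases Prtn3 (8.26 and 7.25) and Ctsg (7.96 and 6.89) and the factor Cebpb (5.39 and 4.20). Cebpb was at background on WT 2, and its bound is 2.02-fold. The neutrophil enzymes Mmp8 (3.11 and 3.16) and Mmp9 (4.03 and 4.01) were at background on both. The part of a few neutrophils in either pool was not tested.

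The brightest myeloid signals did not differ between the pools in this way. Mpo, the myeloperoxidase of granulocyte precursors, read 10.84 and 11.23 and ranked 263 among all genes, and Lyz1 read 10.25 and 10.16. In all 4 of the 29 were high (Irf8, Mpo, Lyz1 and Csf1r), 10 intermediate, 4 split and 11 at background (37.9%, against 44.2% of all genes). Lyz1 is intermediate with the mean of its probe sets. Its other probe sets read 8.50 and 8.41, and 3.0 and 2.8, the latter at background on both arrays. Elane, another granule protease of the same precursors, read 4.47 and 4.46, close above the background limit, and so did Cebpa, the factor of granulocyte fate (4.51 and 4.52). Cd14, Fcgr1, Fcgr3, Adgre1, Itgam, Mmp8 and Mmp9, markers of mature monocytes, macrophages and neutrophils, were at background.

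Genes of the T lineage were divided much as all genes were, without a high member. Of 25 measured, 11 were intermediate (44.0%, against 40.6% of all genes), 2 split and 12 at background (48.0% against 44.2%). Among the intermediate were Cd27 (7.62 and 8.36), the adaptor Lat, Zap70, Ubash3a and Cd6. The factors Gata3 (3.51 and 3.70) and Bcl11b (3.12 and 3.38), which commit cells to the T lineage, and the T-cell genes Cd2, Cd3d, Cd3g, Il2ra and Themis were at background. Of the 25 members, 22 read higher on WT 2, against 56.6% of all genes, although 12 of the 25 were at background on both arrays. Cd5 (3.42 and 4.57) and Cd28 (4.46 and 5.76) were at least 2-fold higher there, against 2.71% of all genes, but Cd5 was at background on WT 1 and its bound is 1.15-fold.

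Natural killer and innate lymphoid genes were at background in 15 of 23 cases (65.2%, against 44.2% of all genes), with 6 intermediate and 2 high. Nkg7, a granule protein gene of cytotoxic cells, was high (8.79 and 9.72), and Klrd1, which encodes the receptor chain CD94, was intermediate (7.44 and 8.04). The other high member was Itga4. The factors Tbx21 (2.46 and 2.56), Eomes (3.47 and 3.46) and Zbtb16 (4.22 and 4.16) and the effectors Gzma, Gzmb and Prf1 were at background. Il18r1, given above, was intermediate.

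Dendritic cell genes lay in every class. Of 22 measured, 4 were high (18.2%, against 8.87% of all genes), 10 intermediate (45.5%), 2 split and 6 at background (27.3%), and the high ones, Irf8, Tcf4, Flt3 and Ccr9, also belong to lists above. Cox6a2, a gene of plasmacytoid dendritic cells, was split (8.45 and 9.18), and Siglech, a surface marker of the same cells, 4.54 and 5.31. Xcr1, Cd209a, Batf3 and Zbtb46, genes of conventional dendritic cells, were at background. The other members at background were Pacsin1 and Cd8a, and the intermediate members included Itgax, Clec10a, Bst2, Irf7, Tlr7 and Tlr9. Genes of MHC class II presentation had 3 high, 10 intermediate (62.5%), 1 split and 2 at background (12.5%) of 16. The cathepsin Ctss (10.57 and 10.63), the peptide loading gene H2-DMa (9.91 and 10.27) and its modulator H2-Ob (10.44 and 10.67) were high. The class II chain H2-Aa (7.01 and 7.52) and the invariant chain Cd74 (5.71 and 6.15) were intermediate, and Ciita, the main activator of these genes, was at background (3.36 and 3.41). On WT 2 a higher value was read for 15 of the 16, against 56.6% of all genes. H2-Eb1 (4.39 and 5.43) and the promoter-binding factors Rfxap (6.05 and 7.33) and Rfxank (5.34 and 6.46) were at least 2-fold higher there, against 2.71% of all genes, while another probe set of Rfxank read 5.59 and 5.94.

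Stem and multipotent progenitor genes were graded. Of 27 measured, 5 were high (18.5%), 15 intermediate (55.6%), 1 split and 6 at background (22.2%, against 44.2% of all genes). Hoxa9, a homeobox gene of early progenitors, read 10.73 and 10.22, and was high with Ezh2, Bmi1, Cd34 and Cd48. Its cofactor Meis1 lay at the limit and was split (8.79 and 8.68). Of genes that mark long-term stem cells, Procr (2.89 and 3.00) and Slamf1 (3.42 and 3.45) were at background and Mecom (5.40 and 4.72) and Hlf (5.21 and 5.75) intermediate.

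Erythroid genes were spread like all genes, and megakaryocyte and mast cell genes were mostly at background. The transferrin receptor Tfrc, which dividing cells of many kinds use (9.05 and 9.21), was the 1 high gene of 16 in the erythroid list, with 7 intermediate (43.8%), 2 split and 6 at background (37.5%, against 44.2% of all genes). Hba-a1 (3.09 and 2.74) and Alas2 (3.36 and 3.27), genes of haemoglobin and haem synthesis, were at background. Gata1 read 4.64 and 4.74. In the erythroid list 4 genes were at least 2-fold higher on WT 1 as measured, against 1.13% of all genes, and Tal1 was on WT 2. Of the 4, the carbonic anhydrase Car2 was above background on both arrays (8.31 and 7.31), and Slc4a1 (4.27 and 3.01) was at background on both. Klf1 (5.35 and 4.24) and Car1 (4.89 and 3.79) were at background on WT 2, which bounds their folds at 1.97 and 1.43 or more. The megakaryocyte and mast cell list had no high member among 19, 5 intermediate, 2 split and 12 at background (63.2%). Of 20 stromal and endothelial genes 16 were at background, among them Col1a1, Cxcl12, Cdh5 and Lepr, 2 were intermediate and 1 split, and Pdgfrb, given above, was high.

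Genes of the cell cycle were read above background with few exceptions. Of 39 cell cycle genes 15 were high (38.5%, against 8.87% of all genes), 20 intermediate, 2 split and 2 at background (5.13% against 44.2%). Mcm7, a subunit of the replicative helicase, read 12.36 and 12.45, and Mcm2 to Mcm6 were high with it. Cyclin D2 (Ccnd2, 11.67 and 11.78) and its kinase Cdk6 (11.48 and 11.59) were high, whereas Ccnd1 and Ccnd3 were intermediate. The proliferation marker Mki67 read 10.19 and 10.02 and the topoisomerase Top2a 10.04 and 9.93. The inhibitor Cdkn2a was at background (2.65 and 2.84), and Cdkn1b was intermediate (7.05 and 6.77).

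Survival genes of the BCL2 family showed 2 high, 6 intermediate (42.9%), 1 split and 5 at background (35.7%) of 14, shares near those of all genes. The survival gene Mcl1 (10.07 and 10.26) and the death gene Bcl2l11, which encodes BIM (9.29 and 9.25), were high. Bcl2, a target of IL-7 signalling, read 10.14 on WT 1 and 8.56 on WT 2 at its brightest probe set. Of its 4 others, 1 differed alike (9.62 and 7.79) and 3 did not (9.17 and 9.05, 7.17 and 7.18, and 6.30 and 6.33). Of the 14 genes, 1 was at least 2-fold higher on WT 1 and 2 on WT 2, against 1.13% and 2.71% of all genes. Those on WT 2 were the death genes Bmf (4.69 and 6.57) and Bid (5.78 and 6.95), whose other probe sets differed by less. Pmaip1 (1.95 and 2.20) and Bbc3 (3.72 and 3.88), death genes induced by p53, were at background.

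Interferon response genes were at a middle level, as 22 of 26 were intermediate (84.6%, against 40.6% of all genes), 2 high, 2 split and none at background. Irf1 (9.02 and 9.02) and Oas1a (8.70 and 8.91) were high, and Rtp4 read 8.08 and 8.10. The list as a whole had similar means in the pools, with a mean of 6.61 on WT 1 and 6.64 on WT 2.

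Some immediate early genes read higher on WT 1. Fos, which cells switch on within minutes of a stimulus, read 9.09 on WT 1 and 3.74 on WT 2, where it was at background, so that the difference was at least 26.3-fold. Of 21 immediate early and heat shock genes 4 were at least 2-fold higher on WT 1, against 1.13% of all genes, and 2 on WT 2, against 2.71%. The other 3 on WT 1 were Dusp1 (6.73 and 5.68), Ier3 (6.65 and 5.51) and Zfp36, while Egr1 (5.30 and 5.24) and Ier2 (8.41 and 8.46) read alike on both and Fosb was at background. The 2 on WT 2 were the heat shock genes Hsph1 (8.47 and 9.51) and Hspa1b (4.85 and 5.94). In this list 3 were high, 10 intermediate (47.6%), 4 split and 4 at background (19.0%).

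Apart from Fos, the differences towards WT 1 were led by Mid1 (9.22 and 5.74), Gcnt2 (8.84 and 6.04), the histone gene H3f3b (8.28 and 5.51) and Epha7 (5.12 and 2.67). Hmbox1 (7.20 and 4.94), Mir99ahg (5.47 and 3.24), Gpr155 (5.66 and 3.48), Setd3 (8.83 and 6.67) and Rwdd2a (6.49 and 4.39) followed. Epha7, Mir99ahg and Gpr155 were at background on WT 2, which bounds their folds at 1.68, 2.13 and 2.44 or more. A second probe set of Gcnt2 (7.58 and 7.25) and of Setd3 (7.28 and 7.52) differed little. Those towards WT 2 held, besides the genes above, the GDNF receptor Gfra1 (4.08 and 7.72), Tifab (3.90 and 6.43), Nmnat1 (4.17 and 6.61) and Purg (4.40 and 6.81), of which the first 3 were at background on WT 1 and differed by at least 10.2, 4.18 and 4.73-fold. The other probe sets of Mid1 and Gfra1 were at background on both arrays, the brightest of them at 3.06 for Mid1 on WT 1. Xist, which is transcribed in female cells, read 11.77 and 10.33, and the Y-linked genes Eif2s3y (7.92 and 8.20) and Kdm5d (5.33 and 5.89) were intermediate on both arrays, while Uty was at background.

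For several further genes named above as high, the class depends on the choice of probe set. Means of all probe sets were classed by limits set anew on such means, here and above, and not by the limits of the brightest probe sets. The new high limits were lower. Cish, which has 1 probe set and read 7.52 on WT 1 and 7.69 on WT 2, passed from intermediate to high. The new high limits thus lay at or under these values. With the mean of all probe sets and these new limits, 87 of the 130 high genes of the lists stayed high. Of those that did not, Adam10, Tcf12, Syk, Ptpn2, Ptpn11, Mapk14, Trp53bp1, Ighm, Mcm5, Top2a, Tfrc, Bcl2l11 and Foxo3 came out intermediate, and Inpp5d and Xrcc6 split, besides those already given. None came out at background.

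At the top of the scale stood genes that all cells use. Of the 20 brightest genes with a name 12 encode cytosolic ribosomal proteins, led by Rpsa (13.85 and 14.03), and of the first 100 genes 33 do. The 11 others are Rps20, Rps29, Rps4x, Rps28, Rps7, Rpl13a, Rps18, Rpl22, Rps2, Rpl19 and Rpl35. The first 20 also held Tpt1, Dntt, Macroh2a1, Hspa8, Actb, Pabpc1, Tmsb10 and Eef1a1, and the last of these read 13.02 and 13.18. All 21 members of the ribosomal protein list were high, and 16 of 24 in the proteasome list, with 6 intermediate and 2 split. Over the whole families by symbol, 41 of 49 cytosolic ribosomal protein genes were high, with 2 intermediate, 3 split and 3 at background, and 19 of 39 proteasome subunits (48.7%), with 14 intermediate, 4 split and 2 at background. Of genes with narrower use, Plac8 (12.77 and 12.81), the microtubule regulator Stmn1 (12.49 and 12.54) and Laptm5, a lysosomal protein gene of blood cells (12.25 and 12.25), were among the first 100.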

How the data were processed

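RNA of 8 sorted progenitor samples was hybridised to Affymetrix mouse arrays, and the 2 WT arrays were described here. The authors deposited RMA intensity values on a linear scale, with RMA named per the submitters' processing notes (release and probe grouping not given in the sources used here). RMA corrects background, normalises across arrays and summarises probes, which makes the distributions of the arrays alike. Values were converted to log2. Of 45101 probe sets, 64 controls, 932 naming several genes and 9160 unnamed ones were left out, and 34945 remained for 18193 genes. Each gene took its brightest probe set by the mean of the WT arrays. Arrays carry no read depth, and their number limits the precision: 1 group of 2 arrays allows no test, and none was made.

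The members and the 30 gene lists were chosen with earlier results of these data known. Genes named with values were drawn from the 4 markers, the 20 brightest genes, the sort and lineage antigens in full, the 5 brightest members and up to 3 most different members of each list, and the 10 largest differences in each direction. Not every gene of these sets is given with its values. Other list members were named for their known role after their values were seen. Of 787 list entries, 91 had no probe set naming them alone and were not used here. Promoters came from RefSeq (GRCm38.p6). Scripts used Python 3.11.15, NumPy 2.4.6, pandas 2.3.3 and matplotlib 3.10.9. The class rule was run on data simulated from the means of these arrays, with the true classes set by the same rule. That run checked the code and not whether a gene is expressed. Alternatives changed the limits, the choice of probe set, the normalization, the fold limit, a filter on low genes, and left out each array.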

Additional observations from a re-analysis of the deposited data

How the results depend on the processing

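The 4 progenitor markers were high under all 10 alternative settings that classify genes. Other background limits, a lower high limit and centring of the arrays could not have changed this. Leaving out either array or quantile normalization could hardly have changed it, since the high limit is a percentile within each array. The class counts are conventions of the limits. With the background limit at the 99th percentile of the reference genes, 4610 genes were intermediate, and in the lists 175 were intermediate and 237 at background. With the high limit at the 95th percentile of genes, 829 genes and 85 list genes were high. At the 75th percentile, 4153 genes and 230 list genes were high, and 4474 genes and 174 list genes were intermediate. With the mean of all probe sets, 265 genes were at least 2-fold higher on WT 2 and 96 on WT 1. A 4-fold limit left 23 and 14. Leaving out either array gave 1820 to 1821 high, 7911 to 8014 intermediate and 8358 to 8462 background genes. With 1 array the high count is fixed by the percentile rule, so its likeness between arrays carries no information. No paired analysis was possible because the values come from 1 group and no test. Signal near background limits what can be said of low genes, and 42.2% of the 1266 high genes with several probe sets have another at background.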

Other observations

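Gene families picked by symbol, after the lists had been seen, filled in classes outside the lineage lists. Of 35 measured subunits of respiratory complex I, 25 were high, and 8 of 9 genes of the CCT chaperonin, which folds actin and tubulin, were high. Mitochondrial ribosomal proteins were mostly intermediate (54 of 76), with 16 high and none at background. In the Hoxa cluster Hoxa9 was high, Hoxa5 and Hoxa7 were intermediate and 6 of 9 were at background, while 22 of 24 genes of the other Hox clusters were at background. Of 8 Gimap genes, GTPases of lymphocyte survival, 7 were intermediate and 1 split. Toll-like receptors were at background in 8 of 11 cases, and Tlr2, Tlr7 and Tlr9 were intermediate. Secreted factors were mostly at background, with 23 of 32 chemokine ligands, 22 of 28 interleukins and 16 of 19 Wnt ligands, and Il16 was the high interleukin.

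Probe sets that name no gene here read lower as a group. Of 9160, 139 (1.52%) were high on both arrays and 70.8% at background, against 6.08% and 51.0% of the probe sets that name 1 gene.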
